A study of Mus musculus with 28 samples.

Results

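The interferon regulatory factors are transcription factors that share a DNA-binding domain, and 8 genes of this mouse family (Irf1, Irf2, Irf3, Irf4, Irf5, Irf7, Irf8 and Irf9) were followed across all 28 libraries. They were chosen as a named family from 55487 gene IDs, with earlier results of these data known. All 8 were among the 13631 genes with at least 1 TPM (a gene's share of a library's transcripts, corrected for length and scaled to the same total in each library) in at least 4 libraries.

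The libraries were poly(A) RNA of wild-type mouse macrophages grown in culture from bone marrow (BMDMs), and the strain was not given in the sources used here. There were 7 groups of 4 libraries, and all cells were cultured for 48 h. The M0 group had non-polarizing conditions, with no cytokine. Its labels name neither T cells nor uptake, although the series' design lists the non-polarizing condition among the co-cultures. The other 6 groups received IFN-γ or IL-10 at 50 ng/mL and were sorted by what the macrophages had taken up. Under each cytokine they were macrophages that took up apoptotic regulatory T cells (Treg), those that took up apoptotic conventional CD4+ T cells (Tconv) and those that took up neither. The T cells had been killed with ATP/NAD and marked with a fluorescent antibody against CD4. The study asks how this uptake, called efferocytosis, changes macrophage transcripts. A contrast with M0 therefore holds the cytokine and may also hold co-culture and sorting, and these cannot be told apart. An uptake library carries the dye and number of its title as its name (BV421-1 and so on). For 8 of the 16 uptake libraries, all of them Treg libraries, the library name gives the other dye. Nothing states that libraries of a group came from separate animals, so p-values measure the spread between these libraries, which may be technical.

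As background, members of the family differ in how they act. IRF1 is made in response to IFN-γ and activates antigen-presentation and antimicrobial genes, and IRF2 binds many of the same sites and often opposes it. IRF3, IRF5 and IRF7 are switched on by kinases downstream of nucleic acid and Toll-like receptors, and IRF9 is the DNA-binding subunit of the complex ISGF3, which also holds STAT2. IRF8 and IRF4 act largely with partners such as PU.1 and BATF, and IRF8 is a lineage factor of macrophages and dendritic cells.

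Stretches are shown for Irf1, Irf2 and Irf8, the only members whose promoter windows held a match to the forms searched for below. Whether a match bears on the level of its gene was not tested. RefSeq promoter windows (GRCm38.p6, 250 bases before to 50 after the start) were found for all 8 members. They were searched on both strands for TTCNNNGAA, the form of the gamma-activated site (GAS), and for GAAANNGAAA, a form of the interferon-stimulated response element (ISRE) that ISGF3 and IRF proteins bind. Capitals mark the match, and each line runs 5′ to 3′ on the gene's strand.
Irf1 GAS: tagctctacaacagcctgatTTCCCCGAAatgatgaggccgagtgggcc
Irf2 GAS: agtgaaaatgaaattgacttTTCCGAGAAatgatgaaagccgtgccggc
Irf2 ISRE-like: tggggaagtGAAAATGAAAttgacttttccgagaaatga
Irf8 first GAS: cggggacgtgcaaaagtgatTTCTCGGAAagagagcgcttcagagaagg
Irf8 second GAS: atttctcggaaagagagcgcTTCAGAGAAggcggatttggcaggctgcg

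The Irf1 stretch lies at chr11:53769904-53769952 on the plus strand, with the match at bases -90 to -82 from the start. In Irf2 the GAS stretch is at chr8:46739501-46739549 and the ISRE-like stretch at chr8:46739495-46739533, both on the plus strand, with matches at -224 to -216 and -241 to -232. These matches do not overlap. The Irf8 stretches are at chr8:120736167-120736215 and chr8:120736185-120736233 on the plus strand, with matches at -171 to -163 and -153 to -145. Of 32851 promoter windows of this length, 8.3% held the GAS form and 3.44% held the ISRE-like form. No match was found in the windows of Irf3, Irf4, Irf5, Irf7 or Irf9, which says only that these letters are not in these windows of 300 bases. Irf1, Irf8 and Irf9 have 2 windows each, and the second windows of Irf1 and Irf8 held no match either.

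In the GENCODE vM21 annotation (GRCm38), Irf1 spans chr11:53770014-53778374 (+), Irf2 chr8:46739732-46847458 (+), Irf3 chr7:44997648-45002848 (+) and Irf4 chr13:30749226-30766976 (+). Irf5 spans chr6:29526625-29541871 (+), Irf7 chr7:141262706-141266481 (-), Irf8 chr8:120736358-120756694 (+) and Irf9 chr14:55603571-55610030 (+). Irf8 overlaps Gm20388 and Irf9 overlaps Rnf31 on the same strand, so how reads were divided there is uncertain. The library kit marks strand, but whether the quantification used it is not given in the sources used here. Irf1, Irf2, Irf3, Irf5 and Irf7 overlap genes on the opposite strand, and their reads could then be mixed. No annotated gene overlaps Irf4.

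Depth differed between the cytokines. Relative depth, read from the steps of low TPM values, took the deepest library as 100% and reached 11.3% to 24.5% under IFN-γ, 49.4% to 91.1% under IL-10 and at least 68.9% in M0. IFN-γ Treg libraries were the shallowest group, at 11.3% to 20.5%, below IFN-γ Tconv libraries at 21.0% to 24.5%. IL-10 Treg libraries were at 49.4% to 66.1% and IL-10 Tconv libraries at 76.2% to 91.1%. Treg and Tconv libraries thus differed in depth without overlap under both cytokines, and its part in their contrasts was not tested. The median SD of genes between libraries of a group was 0.233 to 0.275 on the log2 scale under IFN-γ and 0.102 to 0.122 elsewhere. All 10 macrophage markers were above 0 in all libraries, with a summed level of 18100 to 22800 TPM. The sum of 10 T cell markers was 380 to 704 TPM in IFN-γ libraries, those without uptake included, 58.8 to 165 TPM in IL-10 libraries and 31.3 to 106 TPM in M0. That of 5 fibroblast markers was 92.4 to 109 TPM in M0, 1.26 to 5.79 TPM under IFN-γ and 22.6 to 130 TPM under IL-10.

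In M0 libraries the family was ordered by level in TPM, with Irf8 at 159.5 ± 3.89 TPM and Irf5 at 138.9 ± 2.54 TPM (SD, n = 4) far above the rest. Irf3 was at 56.6 ± 4.13 TPM, Irf1 at 46.4 ± 2.85 TPM and Irf2 at 42.0 ± 5.9 TPM (SD, n = 4). Irf7 and Irf9 were at 27.45 ± 3.56 and 25.6 ± 1.82 TPM (SD, n = 4), a difference within their spread. Irf4, a factor of lymphocytes and of alternatively activated macrophages, was at 0.65 to 1.14 TPM. Under IFN-γ without uptake Irf1 and Irf8 led, at 199.1 ± 11.7 and 187.1 ± 7.93 TPM, and Irf7 came next at 113.9 ± 11.8 TPM (SD, n = 4). Under IL-10 without uptake Irf8 led at 226.4 ± 6.46 TPM and Irf5 followed at 118.4 ± 2.42 TPM, and Irf7 was the lowest member but Irf4 at 23.8 ± 0.744 TPM (SD, n = 4). The summed level of the 8 genes was 489.8 to 507.4 TPM in M0, 703.5 to 747.4 TPM under IFN-γ without uptake and 591.2 to 601.6 TPM under IL-10 without uptake.

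**Figure D1:**
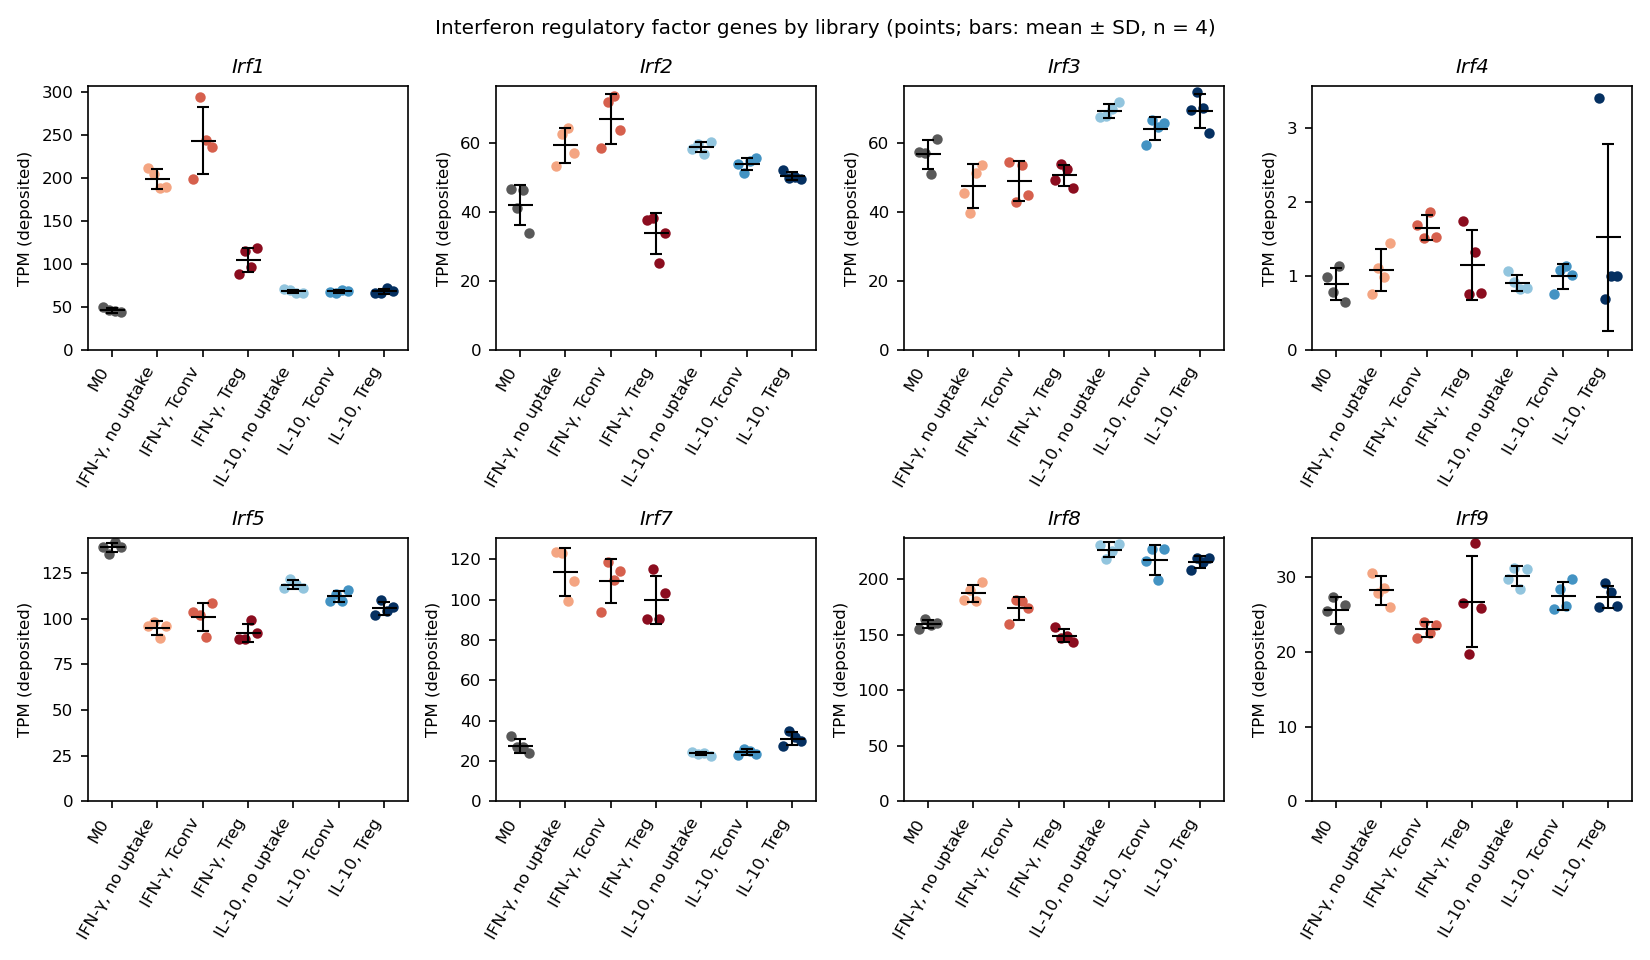
Deposited TPM of each of the 8 genes in each library (points) of the 7 groups, with the mean and SD of 4 libraries as bars; every vertical axis starts at 0. Irf1 in IFN-γ Treg libraries (88.5 to 118.7 TPM) lies below every other IFN-γ library, while Irf7 overlaps between the 3 IFN-γ groups.

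Irf1 had the widest span of group means on the log2 scale (2.61), closely followed by Irf7 (2.52). Irf1 was at 50.45, 46.1, 44.9 and 44.0 TPM in M0 libraries 1 to 4. IFN-γ libraries without uptake had 212.5, 205.2, 189.1 and 189.6 TPM, and IL-10 libraries without uptake had 70.4, 69.3, 66.8 and 66.7 TPM. The 3 groups did not overlap.

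Tconv libraries under IFN-γ had 199.5 (BV421-1), 294.9 (BV421-2), 244.5 (Ax647-1) and 236.3 TPM (Ax647-2) of Irf1. Treg libraries under IFN-γ had 96.9 (BV421-1), 118.7 (BV421-2), 88.5 (Ax647-1) and 114.7 TPM (Ax647-2). Every Treg library was thus below every other IFN-γ library and above every IL-10 and M0 library. The 3 IL-10 groups lay on top of each other, between 66.0 and 71.8 TPM.

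Irf7, which amplifies type I interferon responses, rose with IFN-γ nearly as much but did not follow Irf1 across uptake. It was at 32.4, 26.8, 26.7 and 23.9 TPM in M0 libraries 1 to 4. IFN-γ libraries without uptake had 123.9, 123.1, 99.2 and 109.5 TPM. In IFN-γ Tconv libraries it was at 94.1 to 118.9 TPM and in IFN-γ Treg libraries at 90.4 to 115.3 TPM, ranges that overlap. In IL-10 libraries without uptake it was at 22.8 to 24.4 TPM and in IL-10 Tconv libraries at 23.2 to 26.2 TPM. IL-10 Treg libraries had 31.9 (BV421-1), 30.1 (BV421-2), 27.4 (Ax647-1) and 35.0 TPM (Ax647-2), all above the other 8 IL-10 libraries.

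**Figure D2:**
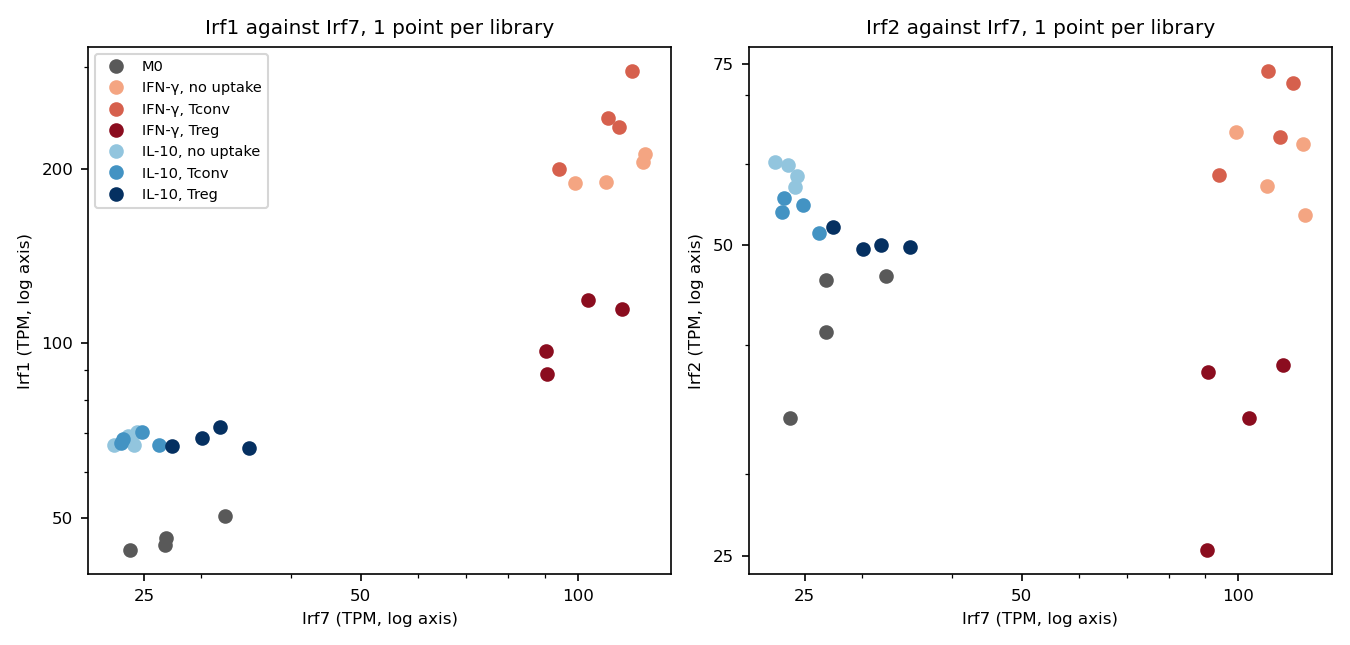
Irf1 (left) and Irf2 (right) against Irf7 in deposited TPM on log axes, 1 point per library, coloured by group. IFN-γ Treg libraries overlap in Irf7 with the other IFN-γ libraries and have less Irf1 and Irf2, and IL-10 Treg libraries move to the right along Irf7 with Irf1 between 66.0 and 71.8 TPM.

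The ratio of Irf1 to Irf7 within a library shows the same divergence and does not depend on scaling between libraries. It was 1.67 to 1.91 under IFN-γ without uptake, 2.07 to 2.48 in IFN-γ Tconv libraries and 0.975 to 1.15 in IFN-γ Treg libraries. Under IL-10 it was 2.76 to 2.93 without uptake, 2.55 to 2.93 in Tconv and 1.89 to 2.44 in Treg libraries, and in M0 it was 1.56 to 1.84. Under both cytokines, Treg libraries therefore had the lowest ratios, with less Irf1 under IFN-γ and more Irf7 under IL-10. The ratio of Irf1 to Irf2 was 2.35 to 3.83 in IFN-γ Treg libraries, which overlaps 2.94 to 3.98 without uptake and 3.31 to 4.1 in Tconv libraries. A ratio shows unequal change and not that either gene stayed constant.

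Irf2 was at 46.7, 41.2, 46.3 and 34.0 TPM in M0. Under IFN-γ it was at 53.5 to 64.4 TPM without uptake and 58.5 to 73.8 TPM in Tconv libraries. IFN-γ Treg libraries had 25.3 (BV421-1), 34.0 (BV421-2), 37.7 (Ax647-1) and 38.3 TPM (Ax647-2), below the other IFN-γ libraries and overlapping with M0. Under IL-10 it was at 56.9 to 60.2 TPM without uptake, 51.4 to 55.6 TPM in Tconv and 49.5 to 52.1 TPM in Treg libraries. IL-10 libraries without uptake were thus above all other IL-10 libraries on this scale, and after scaling they overlapped with Tconv libraries.

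The lineage factor Irf8 was at 154.9 to 164.1 TPM in M0. In deposited TPM it was highest under IL-10, where all 12 libraries lay between 198.8 and 231.5 TPM. Under IFN-γ it was at 180.4 to 197.0 TPM without uptake, 159.2 to 181.3 TPM in Tconv and 143.7 to 157.0 TPM in Treg libraries. Treg libraries lay below the other IFN-γ libraries on the deposited scale, and after scaling they overlapped with Tconv libraries. Scaled Irf8 averaged 207.7 in IFN-γ and 201.8 in IL-10 libraries without uptake, a difference that was not called (log2 0.04). Its ratio to Irf5 within a library was 1.11 to 1.21 in M0 and 1.5 to 2.06 in the other 6 groups. Markers of conventional dendritic cells, some of which depend on IRF8, had a summed level over 5 genes of 0.41 to 0.55 TPM in M0 and 0.43 to 1.27 TPM under IL-10. Under IFN-γ that sum was 3.77 to 12.4 TPM without uptake, at least 5.14 TPM in all 4 Tconv libraries and 1.46 to 3.68 TPM in Treg libraries. Flt3 (at most 0.1 TPM), Zbtb46 (at most 0.32 TPM) and Xcr1 (at most 0.36 TPM in IFN-γ libraries) were near 0. Of the 2 tested, Clec9a and Itgae were called higher in IFN-γ without uptake than in M0 (log2 2.55 and 1.49), and Clec9a was called lower in IFN-γ Treg than in Tconv libraries (log2 -1.43). Their part in the Irf8 values was not tested.

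Irf5, a factor of inflammatory cytokine genes, was highest in M0 at 135.5 to 141.6 TPM and did not overlap there with any other group. It was at 102.0 to 121.7 TPM in IL-10 libraries and 88.7 to 108.4 TPM in IFN-γ libraries. Irf3, the constitutive sensor-driven member, was at 51.1 to 61.1 TPM in M0, 39.5 to 54.4 TPM under IFN-γ and 59.5 to 74.7 TPM under IL-10. Irf9, the DNA-binding subunit of ISGF3, stayed between 19.7 and 34.6 TPM in all 28 libraries. Both of these extremes of Irf9 were IFN-γ Treg libraries (Ax647-2 and BV421-1). Irf4 was between 0.65 and 1.87 TPM in 27 libraries and at 3.41 TPM in the remaining one, IL-10 Treg Ax647-1.

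Fold changes below are log2 differences of scaled TPM + 1 between groups, tested with limma and adjusted over all 13631 genes by the Benjamini-Hochberg method. A gene was called at an adjusted p under 0.05. Comparisons that share a group of libraries are not independent of each other. These are bulk samples, in which fewer cells of a type and less RNA per cell cannot be told apart.

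IFN-γ without uptake was set against M0, a contrast in which the cytokine and any difference in co-culture or sorting cannot be told apart. Irf1 rose 5.18-fold (log2 2.37, SE 0.0595, limma adjusted p 4.49e-08) and Irf7 rose 4.96-fold (log2 2.31, SE 0.104, limma adjusted p 4.24e-07), each higher in 4 of 4 libraries. Irf2 rose by 0.79 (SE 0.103, limma adjusted p 0.00024), Irf8 by 0.53 (SE 0.0438, limma adjusted p 1.57e-05) and Irf9 by 0.43 (SE 0.0776, limma adjusted p 0.00161) on the log2 scale. Irf5 fell, with a log2 difference of -0.25 (limma adjusted p 0.00142). Irf3 (log2 0.04, 95% interval -0.19 to 0.27) and Irf4 (log2 0.28, 95% interval -0.09 to 0.66) were not called. With 6 of 8 members called against 52.9% of all genes, the count itself is near the background (median log2 0.48 over the 8, against 0.003 over all genes). The changes of Irf1 and Irf7 were the largest of the 8 in this comparison. Without scaling Irf9 was at 0.14 (limma adjusted p 0.15). The T cell list moved with this contrast: 10 of 10 markers were called higher, with summed levels of 380 to 673 TPM against 31.3 to 106 TPM, and 4 of 5 fibroblast markers were called lower. Their part in the Irf values was not tested.

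In IL-10 without uptake against M0, all 8 members lay within 0.53 of 0 on the log2 scale. Irf1 rose by 0.53 (SE 0.0412, limma adjusted p 2.33e-05), Irf8 by 0.49 (SE 0.0297, limma adjusted p 5.63e-06) and Irf2 by 0.47 (SE 0.0881, limma adjusted p 0.00461) on the log2 scale. Irf3 rose by 0.27 (limma adjusted p 0.006) and Irf9 by 0.22 (limma adjusted p 0.0234), and Irf5 fell by 0.24 (limma adjusted p 0.000155). Irf7 (log2 -0.21, 95% interval -0.38 to -0.03, limma adjusted p 0.0892) and Irf4 (log2 0.01) were not called. Thus 6 of 8 members were called, against 26.6% of all genes (median log2 0.24, against 0.003). The call of Irf9 was lost without M0 library 1 (limma adjusted p 0.0529), IL-10 library 2 (0.062) or IL-10 library 4 (0.0616), and that of Irf7 was gained without M0 library 4 (log2 -0.26, limma adjusted p 0.0351). No T cell marker was called here (0 of 10), and 4 of 5 fibroblast markers were called lower.

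Set directly against IL-10, IFN-γ without uptake had 5.72-fold more Irf7 (log2 2.52, SE 0.0811, limma adjusted p 3.98e-08) and 3.58-fold more Irf1 (log2 1.84, SE 0.0521, limma adjusted p 1.92e-08). Irf2 was higher by 0.32 (limma adjusted p 0.00239) and Irf9 by 0.21 (limma adjusted p 0.0312) on the log2 scale. Irf8 (log2 0.04, 95% interval -0.06 to 0.14), Irf5 (log2 -0.01), Irf3 (log2 -0.23, limma adjusted p 0.0577) and Irf4 (log2 0.27) were not called. The count was 4 of 8, against 50.8% of all genes. These smaller differences depend on scaling, since the factors of IFN-γ and IL-10 libraries without uptake differ (-0.16 to -0.13 against 0.16 to 0.17 on the log2 scale). On unscaled TPM, Irf8 was lower under IFN-γ by -0.27, Irf5 by -0.32 and Irf3 by -0.54 on the log2 scale, all called, Irf9 was at -0.09 and Irf2 at 0.01, while Irf1 (1.53) and Irf7 (2.21) were called. With scaling, the call of Irf9 was lost without IFN-γ library 1 or IL-10 library 1, 3 or 4 (limma adjusted p 0.0541 to 0.0875), and Irf3 was called without IFN-γ library 4 (log2 -0.30, limma adjusted p 0.0194). All 10 T cell markers were also called higher in this contrast (380 to 673 TPM against 58.8 to 71.4 TPM), and their part in the result was not tested.

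**Figure D3:**
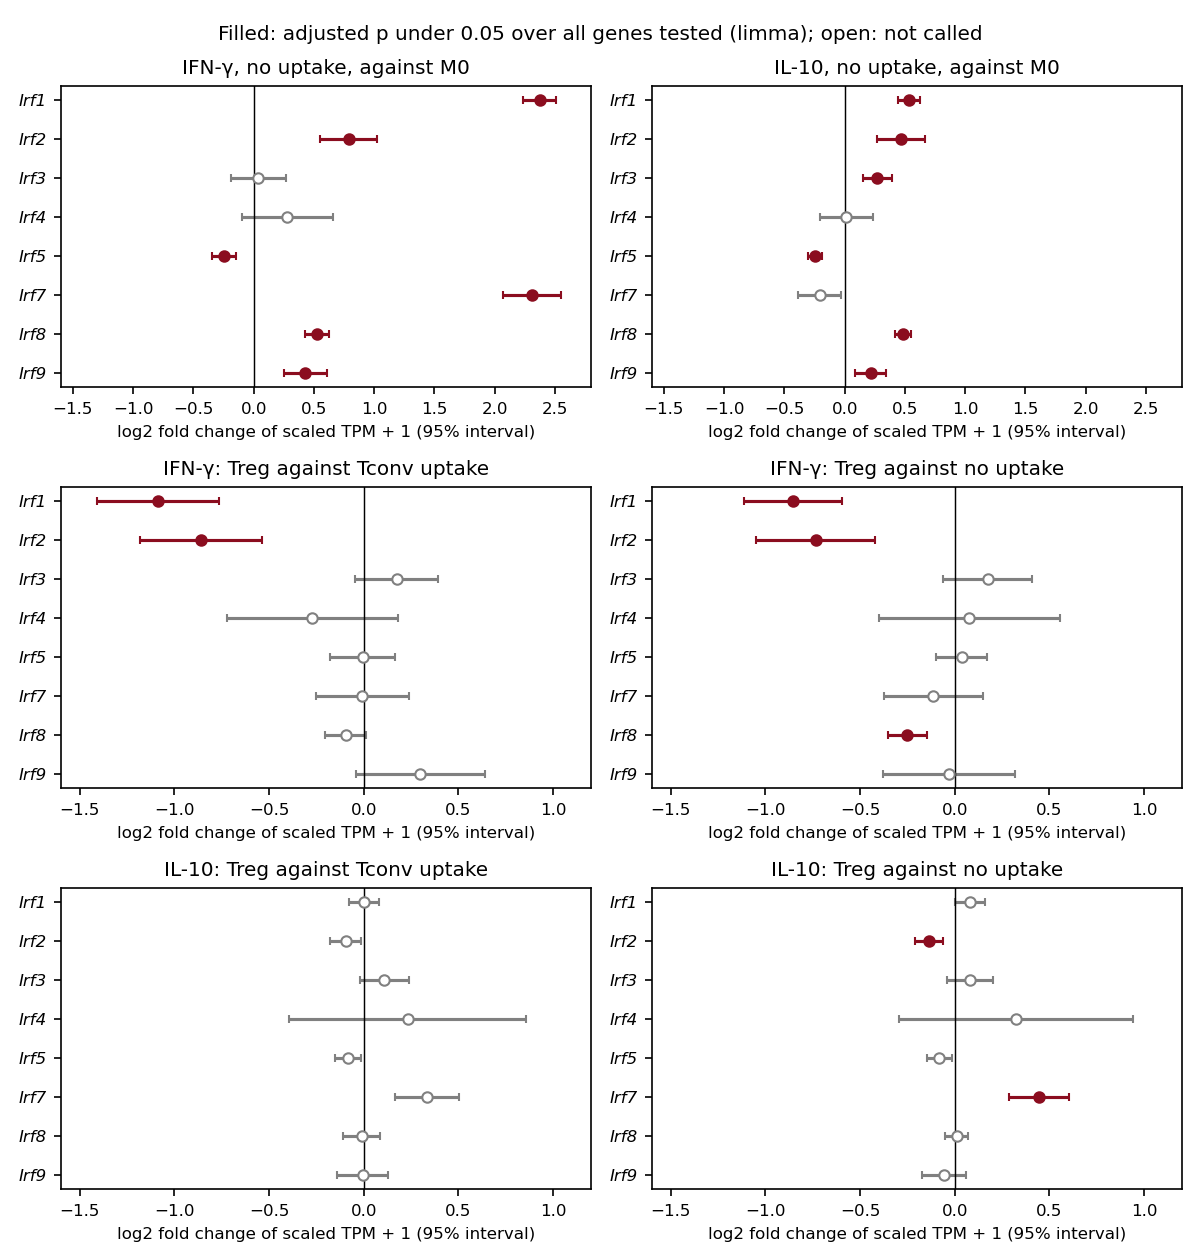
Log2 fold change (horizontal axis, scaled TPM + 1) of the 8 genes in 6 comparisons with 95% intervals from limma, 4 libraries against 4; filled points passed an adjusted p of 0.05 over all genes and open points did not. The upper panels set the cytokines without uptake against M0, where Irf1 and Irf7 lead under IFN-γ, and the middle panels show Irf1 and Irf2 below 0 in IFN-γ Treg libraries.

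Under IFN-γ, Irf1 and Irf2 were lower after Treg than after Tconv uptake. IFN-γ Treg libraries had 2.12-fold less Irf1 than IFN-γ Tconv libraries (log2 -1.09, 95% interval -1.41 to -0.76, limma adjusted p 0.00294) and 1.81-fold less Irf2 (log2 -0.86, 95% interval -1.18 to -0.54, limma adjusted p 0.00695). Each was lower in 4 of 4 libraries. Irf7 did not pass the test and its interval was narrow around 0 (log2 -0.01, 95% interval -0.25 to 0.24), as was that of Irf5 (log2 -0.01, 95% interval -0.18 to 0.17). Irf3 (log2 0.17), Irf4 (log2 -0.27), Irf8 (log2 -0.10, limma adjusted p 0.235) and Irf9 (log2 0.30, limma adjusted p 0.242) were not called. That is 2 of 8 members, against 12.7% of all genes (median log2 -0.05, against 0.04). With BV421 libraries of the titles alone, 2 against 2, Irf1 differed by -1.05 (limma adjusted p 0.265) and Irf2 by -1.003 (0.261), and with Ax647 libraries alone by -1.12 (0.122) and -0.71 (0.119). Such a split rests on the titles' reading of the dye, and with 2 libraries a group it called 0 of all genes with either dye, so its adjusted p says nothing about these members. On unscaled TPM, Irf8 was also called (log2 -0.22, limma adjusted p 0.0385). T cell marker sums overlapped (448 to 704 TPM in Treg and 455 to 587 TPM in Tconv libraries, 0 of 10 called) as did those of Treg markers (40.2 to 62.8 and 49.0 to 64.6 TPM), while 5 of 10 macrophage markers were called higher and 1 lower in Treg libraries.

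IFN-γ Treg libraries were also set against IFN-γ libraries without uptake, and there Irf1, Irf2 and Irf8 were lower. Irf1 was lower by -0.85 (SE 0.112, limma adjusted p 0.00427), Irf2 by -0.74 (SE 0.137, limma adjusted p 0.016) and Irf8 by -0.25 (SE 0.044, limma adjusted p 0.0131) on the log2 scale, each in 4 of 4 libraries. Irf7 (log2 -0.11), Irf9 (log2 -0.03), Irf3 (log2 0.17), Irf4 (log2 0.08) and Irf5 (log2 0.04) were not called. The count was 3 of 8, against 8.28% of all genes (median log2 -0.07, against 0.04). The call of Irf2 was lost without library 2 of the group without uptake (log2 -0.71, limma adjusted p 0.0522) and when genes of any level were tested (0.0536). With a replicate block by file number, a number not shown to pair the libraries, the calls of Irf2 and Irf8 were lost (limma adjusted p 0.0728 for each). T cell markers were not called between these groups (0 of 10), while 7 of 10 macrophage markers were called higher and 1 lower (Mertk, log2 -0.41) in Treg libraries.

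Tconv uptake under IFN-γ gave no called member. With limma, 0 of 8 passed, and 2 had an unadjusted p under 0.05, which were Irf9 (log2 -0.33, 95% interval -0.51 to -0.15) and Irf8 (log2 -0.15, 95% interval -0.28 to -0.03). Only 1 of all genes was called in this comparison, which is 0.00734%, while 874 had an unadjusted p under 0.05. Irf1 was at 0.23 (95% interval -0.01 to 0.48) and Irf2 at 0.12 (95% interval -0.08 to 0.32) on the log2 scale. The largest change of the 8 was that of Irf4 (log2 0.35, 95% interval -0.03 to 0.73). It was at 1.51 to 1.87 TPM in Tconv libraries and 0.76 to 1.44 TPM without uptake, low levels that did not overlap. Irf7 was at -0.11, Irf5 at 0.04 and Irf3 at -0.0006.

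Under IL-10, Irf7 was called higher and Irf2 lower with Treg uptake than without uptake. IL-10 Treg libraries had 1.36-fold more Irf7 than libraries without uptake (log2 0.45, SE 0.0693, limma adjusted p 0.00525), higher in 4 of 4 libraries. Irf2 was lower by -0.14 (SE 0.0324, limma adjusted p 0.0293), also in 4 of 4 libraries. The other members lay within 0.33 of 0 and were not called: Irf1 was at 0.08, Irf3 at 0.08, Irf5 at -0.08, Irf8 at 0.01, Irf9 at -0.06 and Irf4 at 0.33. The 2 called of 8 stand against 11.4% of all genes (median log2 0.04, against 0.0006). The call of Irf2 was lost without any 1 of 6 of the 8 libraries (without uptake 1, 2 or 4, Ax647-2, BV421-1 or BV421-2; limma adjusted p 0.058 to 0.0792), and that of Irf7 was kept in each case. All 10 T cell markers were called higher in IL-10 Treg libraries (141 to 165 TPM against 58.8 to 71.4 TPM) and 4 of 5 fibroblast markers lower, and what they add to the rise of Irf7 was not tested either. Plasmacytoid dendritic cells are known for high Irf7. The sum of 4 of their markers was 1.99 to 3.21 TPM in IL-10 Treg libraries and 0.81 to 1.55 TPM without uptake, with no overlap. Of these 4, 3 were above 0 in all IL-10 Treg libraries, Siglech was listed at 0 there, and of the 2 tested 0 were called (median log2 0.50). Their part in the rise of Irf7 was not tested.

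IL-10 Treg against IL-10 Tconv libraries gave 0 of 8 called members with limma, against 1.4% of all genes. Unadjusted p was under 0.05 for Irf7, Irf5 and Irf2, and for 1889 of all genes. Irf7 was higher by 0.33 (95% interval 0.16 to 0.50, limma adjusted p 0.0813) in 4 of 4 libraries, and it was called without Treg library Ax647-1 (log2 0.39, limma adjusted p 0.0439). Irf5 was at -0.08 and Irf2 at -0.09, and Irf1 was at 0.00 with a 95% interval of -0.08 to 0.08. All 5 fibroblast markers were called lower in these Treg libraries (22.6 to 26.3 TPM against 125 to 130 TPM), and 1 of 10 T cell markers was called higher. Tconv uptake under IL-10 against no uptake likewise gave 0 of 8 with limma, against 6.04% of all genes. There 2 members had an unadjusted p under 0.05 (Irf1, log2 0.08, and Irf7, log2 0.11). So did 2736 of all genes, and nothing is read from these 2 about the family.

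Whether the change with Treg uptake differed between the cytokines was tested as a difference of differences. For Treg against Tconv, Irf1 differed by -1.09 (SE 0.128, limma adjusted p 5.42e-05) and Irf2 by -0.76 (SE 0.126, limma adjusted p 0.000872) between IFN-γ and IL-10, 2 of 8 members against 12.4% of all genes. For Treg against no uptake, the differences were -0.94 for Irf1 (limma adjusted p 4e-05), -0.60 for Irf2 (0.00529), -0.56 for Irf7 (0.0273) and -0.26 for Irf8 (0.0146), 4 of 8 members against 8.09% of all genes. Irf7 is the member here that was higher with Treg uptake under IL-10 and not called under IFN-γ. Its call was lost without any 1 of 5 libraries (IFN-γ without uptake 1, 2 or 4, Treg Ax647-1 or BV421-1; limma adjusted p 0.0511 to 0.0843). Marker lists moved with these differences: against no uptake, 3 of 10 T cell markers were called lower (median log2 -0.79), and 5 of 10 macrophage markers were called higher and 1 lower. Against Tconv uptake, 8 of 10 macrophage markers were called higher and 1 lower, 3 of 5 fibroblast markers were called higher, and of the 2 conventional dendritic markers tested 1 was called lower. Their part in the Irf values was not tested.

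The genes around the family were read as 8 lists, whose counts are to be read against the share of all genes called. That share was 52.9% in IFN-γ against M0, 26.6% in IL-10 against M0 and 50.8% in IFN-γ against IL-10. It was 12.7% in IFN-γ Treg against Tconv libraries and 8.28% against no uptake, and under IL-10 it was 1.4% and 11.4%, and 6.04% in Tconv libraries against no uptake. For the differences of differences it was 12.4% against Tconv and 8.09% against no uptake. Of 16 genes that carry cytokine signals to Irf genes, 11 were called higher and 2 lower in IFN-γ against M0 (median log2 0.61, against 0.003 over all genes). Usp18, which restrains interferon receptors, rose by 2.09. In IL-10 against M0, 9 were called higher and 2 lower (median log2 0.21, against 0.003), led by Socs3 (log2 5.13), an inhibitor induced by STAT3, and Stat3 itself (log2 1.02). IFN-γ against IL-10 gave 8 higher and 6 lower (median log2 0.01, against 0.005), with Socs3 at -3.12 and Usp18 at 2.51.

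In IFN-γ Treg against Tconv libraries, 5 of the 16 signalling genes were called lower and 1 higher (median log2 -0.04, against 0.04 over all genes). Stat2, the ISGF3 subunit, fell from 63.97 to 92.05 TPM in Tconv libraries to 18.72 to 26.21 TPM in Treg libraries (log2 -1.58, SE 0.144, limma adjusted p 0.00129). Tyk2, a kinase of the type I interferon and IL-10 receptors, had 50.73 to 64.68 TPM and 22.41 to 25.66 TPM (log2 -1.13, limma adjusted p 0.000846). The groups did not overlap for either gene, as for Irf1 and Irf2. Against no uptake, 4 were called lower and 1 higher (Stat2 -1.48, Tyk2 -1.11). In IL-10 Treg libraries against no uptake, 4 were called higher and 2 lower, with Socs1 at 0.57, and against Tconv libraries 1 was called lower (Socs3 -0.25). IL-10 Tconv libraries against no uptake had 3 higher and 1 lower (Stat2 -0.15). The differences of differences were called for 6 genes (1 higher, 5 lower; Stat2 -1.63, Usp18 -1.23) against Tconv and for 5 (all lower; Stat2 -1.38) against no uptake.

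**Figure D4:**
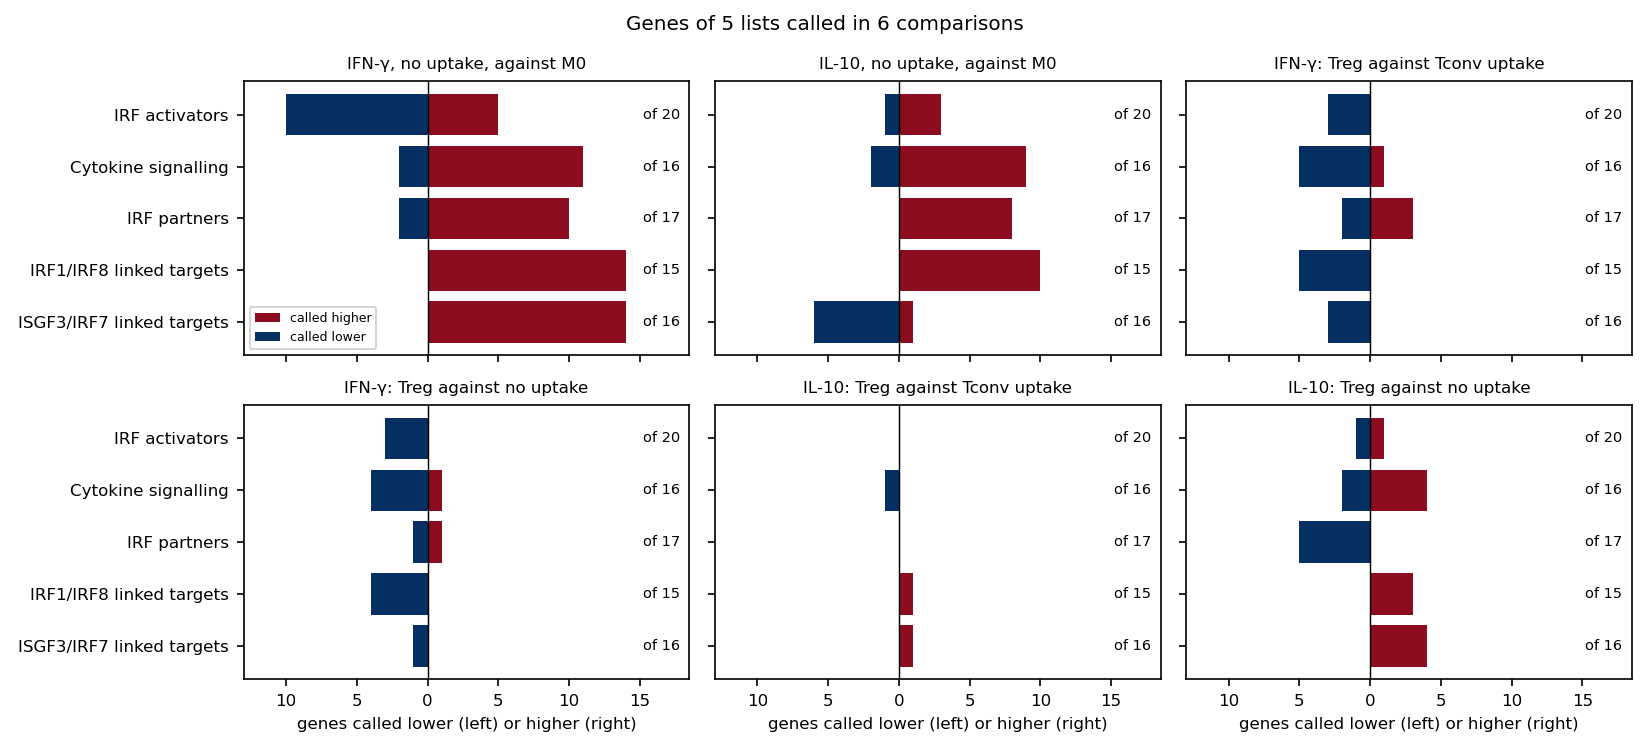
Number of genes called higher (right) or lower (left) in 5 lists around the Irf genes, in 6 comparisons; the number tested stands at the right of each bar. In IFN-γ against M0, 14 of 15 and 14 of 16 genes of the target lists were called higher, against 52.9% of all genes called in either direction; in IFN-γ Treg against Tconv libraries 5 of 15 and 3 of 16 were called lower, where all genes also had more lower than higher calls (1000 and 725, and 1367 and 244 without scaling).

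Kinases and sensors that activate IRF proteins were counted over 20 of 21 listed genes, since 1 name had no match. In IFN-γ against M0, 10 were called lower and 5 higher (median log2 -0.41), with the receptor Tlr4 at -1.45 and the adaptor Traf3 at 0.90. IL-10 against M0 gave 3 higher and 1 lower (Myd88, the Toll-like receptor adaptor, 0.89, and Ikbke 0.34), and IFN-γ against IL-10 gave 5 higher and 10 lower (Tlr4 -1.76, Myd88 -1.33). Of these 20, 3 were called lower and 0 higher in IFN-γ Treg libraries both against Tconv libraries and against no uptake, beside the 12.7% and 8.28% of all genes called, and nothing is read from it about the list. Chuk, a kinase that acts upstream of IRF7 and NF-kappaB, was at 45.66 to 58.31 TPM in Tconv and 21.03 to 26.56 TPM in Treg libraries (log2 -1.01, SE 0.0982, limma adjusted p 0.00129). Tbk1, the kinase of IRF3, was at 51.40 to 69.54 and 25.82 to 37.49 TPM (log2 -0.82, SE 0.129, limma adjusted p 0.00606). Against no uptake these were at -0.95 and -0.69. IL-10 Treg libraries against no uptake had 1 called higher (Tlr7 0.34) and 1 lower (Myd88 -0.22), and against Tconv libraries none was called.

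Among 17 partner and cofactor genes, 10 were called higher and 2 lower in IFN-γ against M0, led by Batf3 (log2 1.08), which acts with IRF8, and the NF-kappaB subunit Rel (log2 1.08). IL-10 against M0 gave 8 higher and 0 lower (Batf3 0.83, Irf2bpl 0.83), and IFN-γ against IL-10 gave 6 higher and 7 lower (Rel 1.02, Rela -0.71). In IFN-γ Treg against Tconv libraries 3 were called higher and 2 lower, and Rel (log2 -0.84) and Irf2bp2, a corepressor that binds IRF2, (log2 -0.30) were those 2. Against no uptake 1 was called lower and 1 higher (Rel -0.71, Junb 0.27). In IL-10 Treg libraries against no uptake 5 were called lower and 0 higher (Cebpb -0.26, Irf2bpl -0.22). Spi1, which encodes the IRF8 partner PU.1, was at 202.2 to 329.5 TPM across all 28 libraries.

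Targets linked to IRF1 and IRF8 were 17 genes, of which 15 were tested, since Il12b and Nos2 were below the level filter. In IFN-γ against M0, 14 were called higher and 0 lower (median log2 1.31, against 0.003 over all genes), led by the guanylate-binding protein genes Gbp2 (log2 5.80) and Gbp5 (log2 2.55). IL-10 against M0 gave 10 higher and 0 lower with smaller sizes (Ciita 0.83, Nlrc5 0.82), and IFN-γ against IL-10 gave 13 higher and 0 lower (Gbp2 5.14, Gbp5 1.96). In IFN-γ Treg against Tconv libraries 5 were called lower and 0 higher (median log2 -0.38, against 0.04). Gbp2 was at 152.9 to 246.3 TPM in Tconv and 47.9 to 75.3 TPM in Treg libraries (log2 -1.54, limma adjusted p 0.00264). Nlrc5, the activator of MHC class I genes, was at 59.59 to 85.44 and 19.50 to 27.68 TPM (log2 -1.38, limma adjusted p 0.00193). Against no uptake 4 were called lower and 0 higher (Gbp2 -1.99, Nlrc5 -1.17). In IL-10 Treg libraries against no uptake 3 were called higher and 0 lower (Gbp2 0.55, Il18bp 0.44), and against Tconv libraries 1 (B2m 0.10). IL-10 Tconv libraries against no uptake had 3 higher (Il18bp 0.40, B2m 0.20). The difference of differences was called for 6 against Tconv (all lower; Gbp2 -1.92, Nlrc5 -1.40) and 8 against no uptake (all lower; Gbp2 -2.54, Ciita -0.99).

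Targets linked to ISGF3 and IRF7 were 16 genes, all tested, and Usp18 is also in the signalling list. In IFN-γ against M0, 14 were called higher and 0 lower (median log2 1.22), with the chemokine gene Ccl5 at 3.99 and Usp18 at 2.09. IL-10 against M0 gave 1 higher and 6 lower (median log2 -0.27), with the antiviral genes Ifit3 at -0.80 and Rsad2 at -0.56. IFN-γ against IL-10 gave 14 higher and 0 lower (Ccl5 4.05, Ifit3 2.55). In IFN-γ Treg against Tconv libraries 3 were called lower and 0 higher (Usp18 -0.83, Oas3 -0.78), and against no uptake 1 was called lower (Oas3 -0.60). Beside the 12.7% and 8.28% of all genes called, nothing is read from these counts about the list.

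In IL-10 Treg libraries 4 of the 16 were called higher and 0 lower against no uptake (median log2 0.32, against 0.0006 over all genes). Ccl5 was at 28.65 to 32.70 TPM without uptake and 54.06 to 72.87 TPM with Treg uptake (log2 1.07, SE 0.0978, limma adjusted p 0.000429). Cxcl10, another interferon-induced chemokine gene, was at 0.30 to 1.30 and 1.94 to 3.08 TPM (log2 0.99, SE 0.178, limma adjusted p 0.0102). Against Tconv libraries 1 was called higher (Cxcl10 0.61), and Tconv against no uptake had 1 higher (Ccl5 0.63). Ccl5 is also made by T cells, whose markers were higher in the same libraries, and that part was not tested. The difference of differences was called for 3 genes (all lower; Usp18 -1.23, Oas3 -0.96) against Tconv and for 3 (all lower; Ccl5 -1.38, Usp18 -1.18) against no uptake.

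Interferon genes themselves were barely seen. Of 8 listed, Ifna1, Ifna2, Ifna4, Ifna5, Ifnl2 and Ifnl3 were listed at 0 in all 28 libraries, and Ifnb1 was above 0 in 1 library (0.57 TPM, IL-10 Treg). Ifng, the only one tested, was at 0.31 to 4.34 TPM in IFN-γ Tconv libraries and at most 1.07 TPM elsewhere, with no call in any comparison. The IRF5-linked list had 3 of 7 genes tested. IFN-γ against M0 gave 2 higher (Tnf 1.41, Ccl4 1.17), IL-10 against M0 gave 1 higher and 1 lower (Il1b 2.09, Tnf -1.07) and IFN-γ against IL-10 gave 2 higher and 1 lower (Tnf 2.48, Il1b -1.73). IL-10 Treg libraries against no uptake had 2 higher (Tnf 0.85, Ccl4 0.42). From the IRF4-linked list 3 of 8 were tested, and Mrc1, the mannose receptor gene, was lower in IFN-γ than in M0 (log2 -0.89), higher in IL-10 than in M0 (log2 0.73) and higher in IFN-γ Treg than in Tconv libraries (log2 0.40). Arg1 was listed at 0 in all 12 IFN-γ libraries and was at 0.29 to 1.4 TPM under IL-10 without uptake.

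Genes whose values ran most like those of a member over the 28 libraries were named for members whose group means span at least 1 on the log2 scale. For Irf1 (span 2.61) they were H2-Q4 (Pearson r 0.988), Rbm39 (0.987) and Trafd1 (0.986). For Irf7 (span 2.52) they were Hnrnph1 (0.995), Hnrnpa2b1 (0.995) and Bst2 (0.994). The libraries share groups and depth classes, so these are descriptions of the group pattern. The other 6 members spanned under 1.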

How the data were processed

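Per the file headers, the authors deposited TPM values per Ensembl gene ID with 2 decimals. Per the submitters' processing notes, STAR, RSEM and mm10 were used; versions and settings are not given in the sources used here. Per the labels' protocols, RNA was extracted with RNAiso PLUS and libraries were made with a NEBNext Ultra II Directional kit. The files hold no counts. Relative depth came from 8426 genes with 1 transcript of 800 to 2000 nt, using TPM times length minus 200: of values up to 4.5 reads, 89.0% to 93.4% came out whole to within 0.15 reads, against 30% for an even spread.

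Here TPM was divided by a trimmed mean of log2 ratios per library (30% and 5% trimmed), and log2(scaled TPM + 1) was tested with limma 3.58.1 (R 4.3.3; eBayes with trend), fitting only the groups compared. Differences of differences used 4 groups and a variance weight per group. The level filter (1 TPM in 4 or more libraries) left 13631 genes. The test was checked on simulated data. Alternatives were other scalings, pseudocounts, filters and variance models, replicate blocks, 1 dye, leaving out each library, and GC and length correction. The 8 members and all lists were chosen with earlier results of these data known. List genes were named by rule, as the 2 called with the largest change in a comparison; Spi1 and the genes listed at 0 were named after their values were seen. A list gene that is not reported here is still in the counts. Of 55487 gene IDs, 55141 matched a symbol.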

Additional observations from a re-analysis of the deposited data

Results flagged for a closer look

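One library stood apart for a member. Irf4 was at 3.41 TPM in IL-10 Treg library Ax647-1 and at 0.69 to 1.00 TPM in the other 3 of its group, a gap of 0.886 of the group's range, above Dixon's 95% critical value for 4 values. This was 1 of 56 gene and group pairs checked, and chance gives about 1 in 20. That library was the shallowest of its group (49.4% of the deepest library, against 62.2% to 66.1%) and had the highest plasmacytoid dendritic marker sum (3.21 TPM, against 1.99 to 2.74 TPM). Its T cell sum was 141 TPM, against 149 to 165 TPM, and its B cell sum 4.17 TPM, against 4.59 to 5.9 TPM. Their part in the Irf4 value was not tested.

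Changes with Treg uptake that differed between IFN-γ and IL-10, by the limma test of the difference itself, were the following on the log2 scale. Against Tconv uptake they were -1.09 for Irf1 and -0.76 for Irf2. Against no uptake they were -0.94 for Irf1, -0.60 for Irf2, -0.56 for Irf7 and -0.26 for Irf8.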

How the results depend on the processing

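Of 1917 values of single members under alternatives, 1831 kept direction and side of the threshold, 66 lost a call, 18 gained one and 2 reversed. Kept values include 73 that changed sign with no call in either fit. The reversals were Irf8 (-0.2742) and Irf9 (-0.0937) in IFN-γ against IL-10 without scaling. Requiring a log2 change of at least 1 left 1 member in IFN-γ Treg against Tconv, 2 in IFN-γ against IL-10, 2 in IFN-γ against M0, 1 in the difference of differences for Treg against Tconv, and 0 in IFN-γ Treg against no uptake, IL-10 Treg against no uptake, IL-10 against M0 and the difference of differences for Treg against no uptake. With this requirement, 1825 of all genes were called in IFN-γ against IL-10, 1915 in IFN-γ against M0 and 252 in IL-10 against M0. Against no uptake 269 were called in IFN-γ Treg and 77 in IL-10 Treg libraries. The differences of differences had 440 against Tconv and 329 against no uptake. For IFN-γ Treg against Tconv the count over all genes is not reported here, so nothing is read from its 1 member about the family. One dye of the titles alone (BV421 or Ax647) gave 0 in IFN-γ Treg against Tconv, with 2 libraries a group and 0 calls over all genes. The model of all 28 libraries left 1 in IL-10 Treg against no uptake with 1 variance or variance weights, and variance weights gave 1 (Irf7) in IL-10 Treg against Tconv. With 1 variance, Irf9 was gained in IFN-γ Treg against Tconv (limma adjusted p 0.0218) and lost in IL-10 against M0 (0.194); with weights Irf7 was gained in the latter (0.0181). Both fits gained Irf3 and lost Irf9 in IFN-γ against IL-10. Over all genes, 1 variance called 4415 in IFN-γ Treg against Tconv, where the main fit called 1725. Weights called 366 in IL-10 Treg against Tconv (main fit 191) and 4023 in IL-10 against M0 (main fit 3621). Leaving out each library gave 1 to 2 members in IL-10 Treg against no uptake and 0 to 1 against Tconv. Counts over all genes for the left-out libraries and the other fits of 28 libraries are not reported here. Nothing is read from those member counts about the family.

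No numbers were shown to pair the libraries: correlations of deviations between same-numbered libraries were -0.0667 to 0.0851, none over 0.1. A replicate block by file number gave 1 member in IFN-γ Treg against no uptake (Irf2 and Irf8 were lost), 1 in IL-10 Treg against no uptake and 2 in the difference of differences for Treg against no uptake (Irf7 and Irf8 were lost), and it added Irf7 to that for Treg against Tconv (limma adjusted p 0.0475). A block by title number lost Irf9 and gained Irf3 in IFN-γ against IL-10. GC and length correction, chosen after seeing the data, gave 1 (Irf7) in IL-10 Treg against Tconv, and with the replicate block 1 in IFN-γ Treg against no uptake and 1 in IL-10 Treg against no uptake. Counts over all genes with these blocks and corrections are not reported here, so nothing is read from the member counts about the family. The cause of these changes was not tested.

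Counts over all genes moved by more than 1.5 times: 1725 in IFN-γ Treg against Tconv ranged from 0 (BV421 alone) to 4415 (all 28 libraries, 1 variance), 1129 against no uptake from 269 to 3852, 191 in IL-10 Treg against Tconv from 0 to 366, and 1556 against no uptake from 77 to 2097. Likewise 1 in IFN-γ Tconv against no uptake ranged from 0 to 116, 823 in IL-10 Tconv against no uptake from 11 to 1235, 6927 in IFN-γ against IL-10 from 1825 to 7917, 7213 in IFN-γ against M0 from 1915 to 8132 and 3621 in IL-10 against M0 from 252 to 4023. The differences of differences ranged from 440 to 2362 (1696) and 329 to 1846 (1103). Calls split 725 higher and 1000 lower in IFN-γ Treg against Tconv, and 244 and 1367 without scaling. The shallow IFN-γ libraries limit what could be seen of low genes such as Irf4.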
